A study of Drosophila melanogaster with 3 samples.

Results

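Xbp1, Pdi, Hsc70-3, Gp93 and ERp60 encode proteins that sense or carry out protein folding in the endoplasmic reticulum (ER), and they were taken as the 5 named gene rows among the 15682 genes listed in each count table. Each was found under its own symbol in all 3 tables. RNA sequencing counts were available for 3 libraries of Drosophila melanogaster males aged 10 days, all of a single group with RNA interference (RNAi) against Ptx1, the fly gene of the PITX transcription factors, in skeletal muscle. The sample titles join Mhc, Gal4 and the RNAi, which names a Gal4 driver of the myosin heavy chain gene, a gene of muscle. All 3 titles write the RNAi as PtxRNAi2. The series text sets these libraries against control libraries of another series, which are not analysed here, so no value below is a response to the RNAi. Nothing in the labels tells if the flies of the 3 libraries were pooled separately, so the spread between them may be partly technical.

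Proteins that enter the secretory pathway fold inside the ER with the help of lumenal chaperones and of enzymes that form and shuffle disulfide bonds. When unfolded proteins accumulate, the unfolded protein response (UPR) raises the folding capacity. In the branch that is shared from yeast to animals, the sensor Ire1 cuts a short intron from the mRNA of a transcription factor, and in animals that factor is Xbp1, which becomes active once its mRNA is spliced. In muscle the same membrane system, as the sarcoplasmic reticulum, also stores the calcium used for contraction. Counts per gene do not separate spliced from unspliced Xbp1 mRNA.

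The libraries held 35988267, 50794384 and 52675322 gene counts in libraries 1, 2 and 3. Levels are given in CPM, the count of a gene scaled to a fixed total of gene counts per library, with exact 95% Clopper-Pearson intervals, which cover counting error only. The 12 muscle markers summed to 22065, 25967 and 24111 CPM, and every one was detected, that is, at 1 CPM or more in every library. Their sum was lowest in library 1, although 7 of the 12 were highest there. The giant sarcomere genes bt, at 2544, 4452 and 3566 CPM, and sls, at 2036, 3594 and 2798 CPM, both named after their values were seen, were the muscle markers with the widest differences. Genes of other cell types were counted as well. The 6 gut markers summed to 9384, 8097 and 8197 CPM, the 6 fat body markers to 3418, 3160 and 3202 CPM, the 6 neuron and glia markers to 643, 959 and 844 CPM, and the 4 blood cell markers to 232, 297 and 279 CPM. All 6 gut and all 6 neuron and glia markers were detected, beside 5 of 6 fat body and 3 of 4 blood cell markers. Of the fat body sum, 1 gene alone held 2244, 2064 and 2071 CPM. Of 6 accessory gland and testis markers, 2 had no count in any library and 1 was detected, with a sum of 2.08, 1.65 and 1.58 CPM. The tissue that the ER gene counts came from is therefore not known from these tables, and more cells of a type cannot be told apart from more RNA per cell. The target gene, Ptx1, stood at 15.7, 12.3 and 12.2 CPM in libraries 1, 2 and 3.

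Among the members, Xbp1 is the transcription factor of the UPR. It stood at 668 CPM in library 1 (95% interval 660 to 677), 579 CPM in library 2 (573 to 586) and 604 CPM in library 3 (598 to 611), from 24041, 29421 and 31830 counts. The mean was 617 ± 45.8 CPM (SD, n = 3). No interval overlapped another, so the libraries differed by more than counting error for Xbp1, with library 1 highest and library 2 lowest. Taken over all genes with counts, the libraries also differed by far more than counting error. The chi-square per degree of freedom was 86.1 between libraries 1 and 2, 35.6 between 1 and 3, and 19.7 between 2 and 3. Intervals that do not overlap are therefore not particular to the members.

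The lumenal chaperones followed the same order of libraries. Hsc70-3 is the fly BiP, the HSP70 chaperone of the ER lumen, which binds newly made chains and, in unstressed cells, the UPR sensors. It stood at 520 CPM in library 1 (513 to 528), 449 CPM in library 2 (443 to 455) and 486 CPM in library 3 (480 to 492), with a mean of 485 ± 35.7 CPM (SD, n = 3). Library 1 was again highest, and library 3 lay about midway between the other two. Gp93 is the fly GRP94, the HSP90 chaperone of the ER lumen, which in mammals folds integrins and Toll-like receptors. It stood at 234 CPM in library 1 (229 to 239), 192 CPM in library 2 (188 to 196) and 203 CPM in library 3 (200 to 207), with a mean of 210 ± 21.9 CPM (SD, n = 3). Gp93 had the widest relative spread of the 5 genes, with a coefficient of variation (CV) of 10.5%.

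The disulfide isomerases varied the least. Pdi, the main protein disulfide isomerase, stood at 560 CPM in library 1 (553 to 568), 499 CPM in library 2 (493 to 505) and 520 CPM in library 3 (513 to 526), with a mean of 526 ± 31.2 CPM (SD, n = 3) and a CV of 5.92%. ERp60, the fly counterpart of the isomerase that in mammals works with calnexin and calreticulin on glycoproteins, stood at 331 CPM in library 1 (325 to 337), 294 CPM in library 2 (289 to 299) and 302 CPM in library 3 (297 to 307). Its mean was 309 ± 19.6 CPM (SD, n = 3), with a CV of 6.34%. Library 1 was apart from the other 2 libraries for ERp60, whereas the intervals of libraries 2 and 3 overlapped. Together the 5 genes held 0.231%, 0.201% and 0.212% of the gene counts in libraries 1, 2 and 3, or 0.215 ± 0.0153% on average (SD, n = 3). Transcript lengths were not used here, so the members are not ranked against each other.

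**Figure D1:**
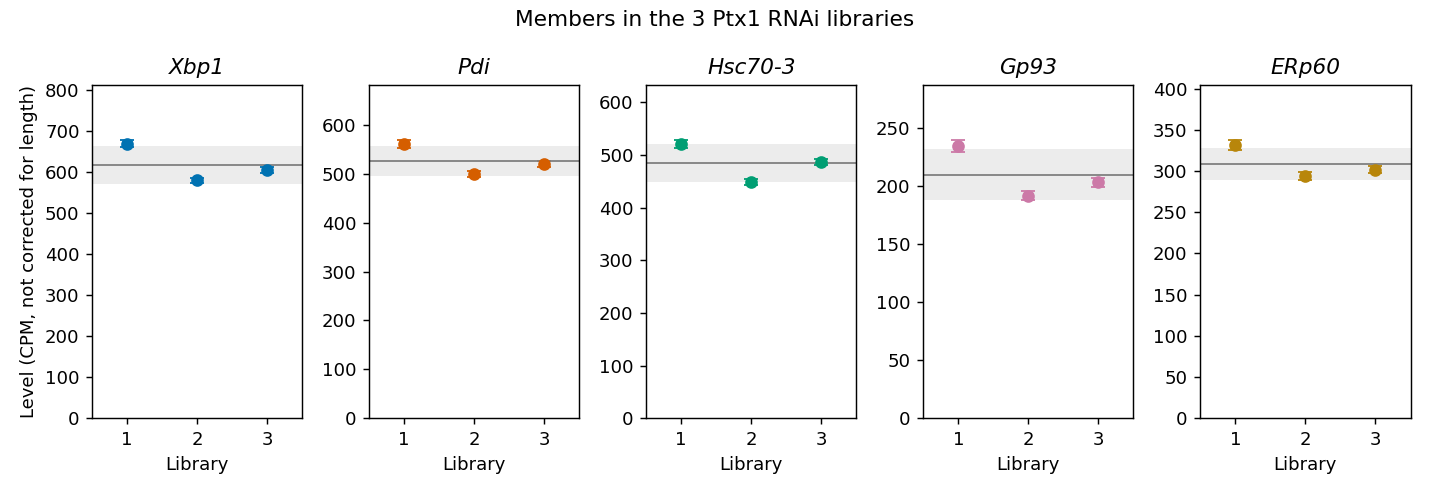
Level of each member in CPM (vertical axes from 0, a scale of its own per gene) in libraries 1, 2 and 3 (horizontal axis). Points are libraries with exact 95% counting intervals, the grey line is the mean and the grey band 1 SD either side of it; library 1 gave the highest point and library 2 the lowest for each gene, and Gp93 stood at 234, 192 and 203 CPM.

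For all 5 members, library 1 thus gave the highest level and library 2 the lowest. The ratio of library 1 to library 2 was 1.22 for Gp93 (95% counting interval 1.19 to 1.26), 1.16 for Hsc70-3 (1.14 to 1.18), 1.153 for Xbp1 (1.13 to 1.17), 1.13 for ERp60 (1.10 to 1.154) and 1.12 for Pdi (1.10 to 1.14). Of all 9579 detected genes, 36.0% had this order of libraries. Library 3 also lay above library 2 for each member, with ratios between 1.03 for ERp60 and 1.08 for Hsc70-3, whereas 55.5% of detected genes did so. The order was the same for all 5 genes when libraries were scaled with TMM factors, with DESeq2 size factors or with the 10 most abundant genes left out of the totals. Library 1 was the least deeply sequenced and differed from libraries 2 and 3 in the summed gut, neuron and glia, blood cell and muscle markers above, the last with bt and sls low in library 1, and in the share of listed counts that fell in no annotated feature, at 9.80% against 11.9% and 11.6%. The part of depth or tissue makeup in this order was not tested. Nor was that of transcript length, since no lengths were used.

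The test across all genes did not call these differences. The goodness-of-fit test of edgeR, for an intercept-only model, asks whether a gene varies more than the dispersion fitted at its abundance. That dispersion was fitted to these same libraries. The test called 0 of 5 members, against 2.05% of the 10522 genes tested (216 genes). Without libraries 1, 2 and 3 in turn, 108, 89 and 124 genes were called. None of the 5 had an unadjusted p under the threshold of 0.05, whereas 5.39% of all tested genes did, and the adjusted p of each member was 0.99996. At the members' abundance, the fitted trended dispersion corresponded to a biological CV of 13.1% to 13.2%, above the CV of every member (5.92% to 10.5%). That is a fitted setting of the test and not the spread of a typical gene. A spread of the members' size could therefore hardly be called, and the 0 of 5 says little about the members. The standard deviation of log2(CPM + 0.5) was 0.15 for Gp93, 0.11 for Xbp1, 0.11 for Hsc70-3, 0.09 for ERp60 and 0.08 for Pdi, beside a median of 0.11 over all detected genes. Between 37.4% (Pdi) and 67.1% (Gp93) of detected genes had a smaller one. The members' spread was therefore that of a typical gene in these libraries, and the test, with 3 libraries, does not show that their levels were equal.

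**Figure D2:**
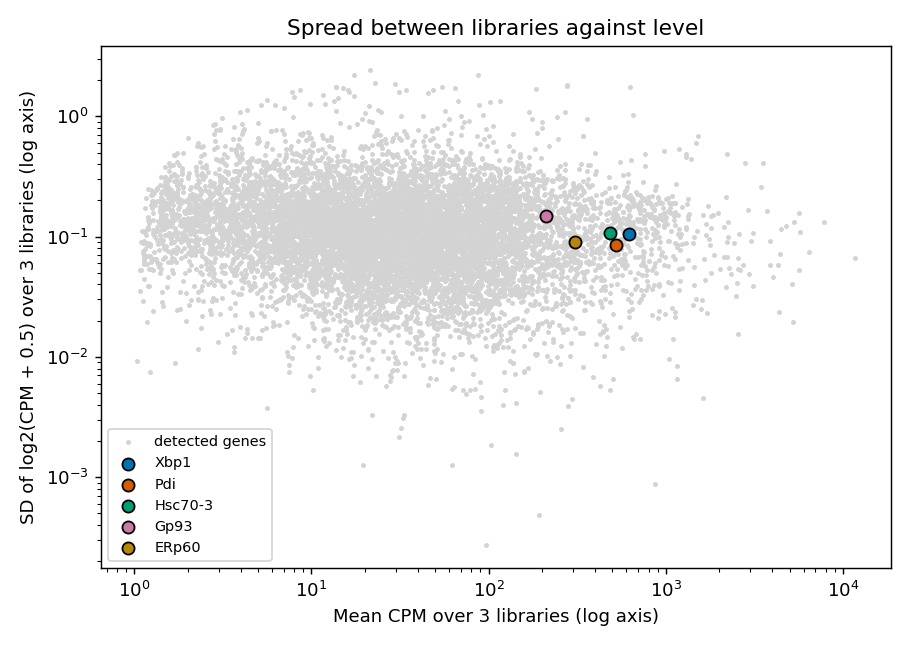
Standard deviation of log2(CPM + 0.5) over the 3 libraries (vertical log axis) against mean CPM (horizontal log axis) for 9579 detected genes (grey) and the 5 members (coloured). The members lie inside the grey cloud, from 0.08 for Pdi to 0.15 for Gp93.

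The proportions of the members to each other varied less between libraries than their levels did. Over the 10 pairs of members, the ratio of their counts within a library had a CV over the libraries of 0.911% to 4.38%, with a median of 2.40%, while the CPM of single members had CVs of 5.92% to 10.5%. The steadiest pair was the 2 isomerases, for which the Pdi to ERp60 count ratio was 1.692, 1.698 and 1.722 in libraries 1, 2 and 3. The least steady was the Pdi to Gp93 ratio, at 2.39, 2.60 and 2.55, and the Gp93 to ERp60 ratio was 0.708, 0.653 and 0.674, so Gp93 stood higher relative to both isomerases in library 1. The size of such a ratio is not corrected for transcript length, and only its change between libraries is read here. Genes with the same library order give ratios that vary less than their levels, and whether their ratios were steadier than those of other genes was not tested.

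Among all detected genes, those with the most similar deviations from their own mean over the 3 libraries were MBD-like and nclb for Xbp1, Ced-12 and CG9691 for Pdi, CLS and CG4325 for Hsc70-3, Tom20 and Sry-beta for Gp93, and CG32549 and CG1907 for ERp60. Their Euclidean distances from the member, on the log2(CPM + 0.5) scale, lay between 0.00061 for Ced-12 and 0.0026 for Sry-beta. A profile of 3 values is easily matched: between 582 genes (Gp93) and 980 genes (Pdi) lay within a distance of 0.05. The nearest other member was farther away in every case, at 0.018 between Pdi and ERp60, 0.024 from Xbp1 to ERp60, 0.042 from Hsc70-3 to Xbp1 and 0.060 from Gp93 to Xbp1.

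The wider ER pathway was described through 6 lists with 54 genes, members included, of which 53 were detected. None of the 53 genes tested was called variable, against 2.05% of all genes. Of the 53, 1 had an unadjusted p under 0.05, against 5.39% of all genes. In 33 of the 53 (62.3%), the libraries had the same order as for the members, and without the members it was 28 of 48 (58.3%), against 36.0% of all detected genes. The median log2 ratio of library 1 to library 2 was 0.13 over the 53 genes and 0.12 without the members, beside 0.02 over all detected genes. These are counts over genes of the same 3 libraries, which are not independent of each other, and no test of the lists was made.

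The lists did not all follow the members. Among 16 genes of translocation into the ER and glycan transfer, 12 had the members' library order, with a median log2 ratio of library 1 to library 2 of 0.26. This list held Sec61alpha, the pore of the translocon, at 210, 194 and 203 CPM, and Trp1, the fly Sec62, at 152, 165 and 166 CPM, which ran the other way between libraries 1 and 2. Among 8 genes of oxidative folding, Pdi and ERp60 included, 6 had the order (median 0.16), and among 7 lumenal chaperones and helpers, Hsc70-3 and Gp93 included, 5 did (median 0.21). Of 5 detected lectin chaperones and glycan trimming genes, 2 had it (median 0.03). That list held Crc, the older symbol of the calreticulin gene, at 486, 430 and 447 CPM, which had the order. It also held CG14476, the alpha subunit of glucosidase II, at 294, 287 and 285 CPM, which was lowest in library 3. Of 10 genes of ER-associated degradation, 5 had the members' order (median 0.10). Among the 10, Npl4 had it, at 4478, 4140 and 4245 CPM, whereas TER94, at 329, 318 and 317 CPM, was lowest in library 3. The proteins of Npl4 and TER94 work together to extract substrates from the membrane. Whether reads of an overlapping gene were counted in the Npl4 row was not tested, so its level is uncertain.

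Of the 7 UPR sensors and transducers, 3 had the members' order, Xbp1 included, and 3 had the opposite one, highest in library 2 and lowest in library 1, which 32.5% of all detected genes had (median log2 ratio of library 1 to library 2 of 0.00 when rounded). The 3 opposite genes, named after their values were seen, were those of the UPR sensors. Ire1, the kinase and nuclease that splices Xbp1 mRNA, stood at 56.5, 72.4 and 69.5 CPM in libraries 1, 2 and 3, with a ratio of library 1 to library 2 of 0.781 (95% counting interval 0.739 to 0.824). Atf6 stood at 62.8, 84.0 and 80.1 CPM, with a ratio of 0.747 (0.710 to 0.787). PEK, the fly PERK kinase, which slows translation under ER stress, stood at 47.2, 50.2 and 49.9 CPM, with a ratio of 0.941 (0.884 to 1.001) whose counting interval includes equality. Total Xbp1 counts ran the other way from Ire1 between libraries 1 and 2. They do not separate spliced Xbp1 mRNA, so the action of Ire1 on Xbp1 cannot be read from them. The transducer crc, the fly ATF4, which is translated when PERK is active, was nearly level at 1118, 1119 and 1151 CPM. None of these genes was called variable in the edgeR goodness-of-fit test, against 2.05% of all genes tested, which says little about so few genes.

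Edem1, named for its unadjusted p, encodes a lectin-like protein that marks misfolded glycoproteins for degradation and was the ER list gene with an unadjusted p under 0.05. In the edgeR goodness-of-fit test it had an adjusted p of 0.712. Edem1 stood at 14.0, 24.3 and 19.1 CPM in libraries 1, 2 and 3, with a ratio of library 1 to library 2 of 0.577 (0.520 to 0.641), opposite to the members.

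**Figure D3:**
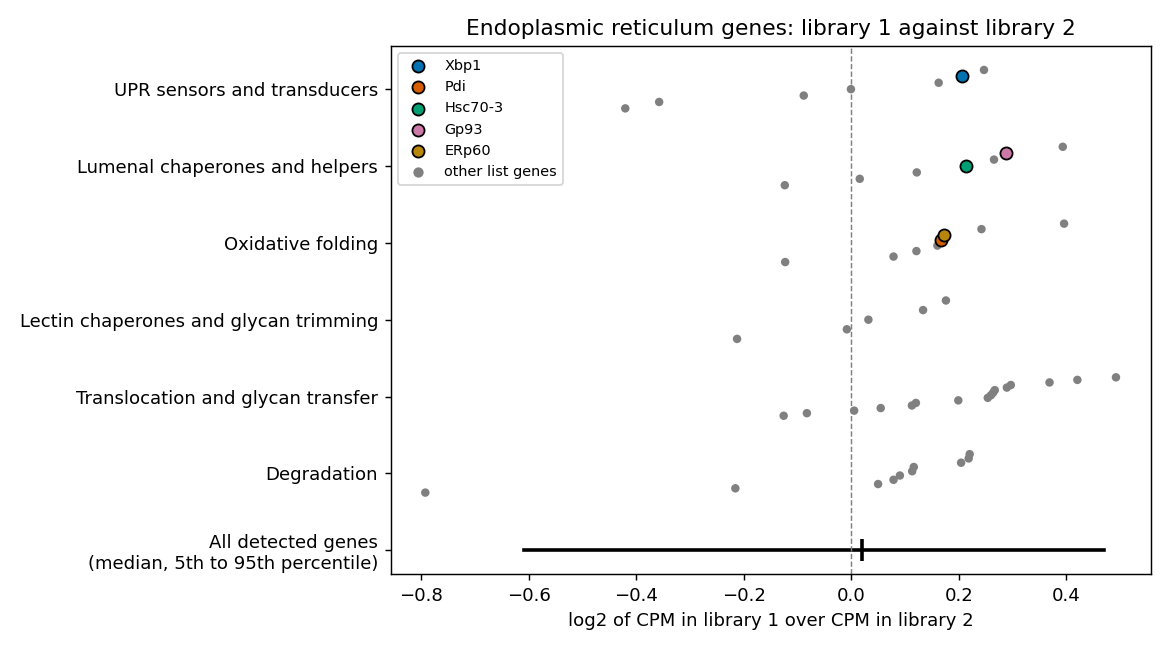
Log2 ratio of CPM in library 1 over library 2 (horizontal axis) for the detected genes of the 6 ER lists (rows; each point is a gene, members coloured and outlined) and, in the bottom row, the median with the 5th to 95th percentile of all 9579 detected genes. The 5 members lie between 0.17 and 0.29, to the right of the all-gene median of 0.02, while Edem1 at −0.79 and Atf6 at −0.42 lie to the left of 0.

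Relatives of the ER chaperones that work in other compartments allow a comparison within protein families, library against library. Hsp83, the cytosolic HSP90, had a ratio of library 1 to library 2 of 1.01 (95% counting interval 0.998 to 1.02), and the mitochondrial HSP90 Trap1 had 1.09 (1.05 to 1.13), beside 1.22 (1.19 to 1.26) for Gp93. Hsc70-5, the mitochondrial HSP70, had a ratio of 1.005 (0.987 to 1.02), and the cytosolic Hsc70-4 had 1.12 (1.11 to 1.13), beside 1.16 (1.14 to 1.18) for Hsc70-3. The counting intervals of both ER chaperones lay above those of their relatives. These intervals cover counting error only, and over all genes the libraries differed by far more than that. The ratios of Hsc70-3 and Hsc70-4 differed little, and that of Hsc70-4 was close to the 1.12 of the ER member Pdi. None of the 6 chaperone genes was called variable between the libraries, against 2.05% of all genes tested, which says little about so few genes. A difference between ER chaperones and their relatives beyond counting error was not tested. CG2918, the Hyou1 gene of the lumenal chaperone list, was nearly level at 187, 185 and 185 CPM in libraries 1, 2 and 3.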

How the data were processed

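Polyadenylated RNA was sequenced from stranded TruSeq libraries as pairs of 100 base reads, per the labels' protocols. The authors deposited raw counts for each gene, as whole numbers. The 5 summary rows, with 22.0% to 25.1% of listed counts, name no gene and did not enter totals or tests. CASAVA 1.7 and the tools BWA, STAR and HTSeq are listed, with no roles, per the submitters' processing notes. The build listed there is one of the mouse, so the fly build of the counts is unknown here and no coordinates or sequences are shown. It is also unknown whether counting used strand, so counts of overlapping genes are uncertain. A further 6 per-sample columns belong to samples of another series and were not used.

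CPM used the total of all genes. The members and lists were chosen with earlier results of these data known. Of 98 list and marker entries, 16 were matched by an older name. Named list genes are those 2 per list with the most CPM and any called. Ire1, Atf6, PEK, Edem1, bt and sls were added after their values were seen. CG2918 was also named outside this rule. The relatives in other compartments and Ptx1 are named for their roles. Variable genes were found with edgeR 4.0.16 in R 4.3.3 (TMM, filterByExpr, trended dispersion, chi-square goodness of fit, Benjamini-Hochberg over all genes, threshold 0.05). The test was run on counts simulated from that same dispersion, with changes larger than those of the members. That run therefore does not cover differences of the members' size. Python 3.11.15 with scipy 1.17.1 gave exact intervals. Alternatives were DESeq2 1.42.0 size factors, no filter, a common dispersion, other totals and leaving out each library. Levels per length and promoter motifs had been planned and were not computed, since no lengths or sequences of the files' build were used here.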

Additional observations from a re-analysis of the deposited data

How the results depend on the processing

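With the 10 most abundant genes left out of the totals, which raises every CPM, Pdi averaged 562 CPM and ERp60 averaged 330 CPM, a move of more than 1 SD; the smaller total accounts for this. With 1 library left out, the mean of Xbp1 ranged from 592 to 636 CPM, of Pdi from 509 to 540 CPM, of Hsc70-3 from 468 to 503 CPM, of Gp93 from 198 to 219 CPM and of ERp60 from 298 to 316 CPM, and the members' share of counts from 0.206% to 0.221%. Leaving out libraries 1, 2 and 3 in turn, where fewer libraries remain, gave 108, 89 and 124 genes called variable, against 216 with all. The count was 213 with DESeq2 size factors, 262 with no filter on low counts and 244 with a common dispersion. No member and no ER list gene was called under any of these 6 alternatives. With DESeq2 size factors, 31 of 53 ER list genes had the members' library order, against 31.4% of detected genes. The other alternatives moved no mean and no share by more than 1 SD between libraries. The number of ER list genes detected stayed at 53 with each library left out, and with a threshold of 5 CPM. No paired analysis was possible because the labels give a single group. Levels per kilobase were not run.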
